A study of Mus musculus with 21 samples.

Results

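Epididymal white fat of germ-free mice was compared with that of conventionally raised mice at the 2 sampling times around dusk, zeitgeber time (ZT) 10 and 14, in hours after lights on. The comparison used 7 of the 21 libraries of the series, chosen by their labelled group and time: 4 conventional libraries, 2 per time, and 3 from germ-free mice, of which 2 were from ZT10 and 1 from ZT14. The whole series sampled both groups every 4 h over the day, by total RNA sequencing after removal of ribosomal RNA. All mice were males of strain C57BL/6j aged 15 to 16 weeks, fed ad libitum. The conventional mice carried a gut microbiota and the germ-free mice were kept without microbes. Germ-free is a lifelong state of the whole animal, so effects on the fat and on any other organ cannot be told apart. Whether the libraries stem from different mice is not stated in the labels, so the p-values cover the library-to-library spread, which may be technical in part.

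White fat cells take up fatty acids that lipoprotein lipase frees from circulating triglyceride, and also make them from glucose by de novo lipogenesis. Citrate leaves the mitochondria, ATP citrate lyase cleaves it to acetyl-CoA, and acetyl-CoA carboxylase and fatty acid synthase build it into palmitate with NADPH as reductant. Mice feed mainly at night, so dusk is when the depot passes from the fasting to the feeding state. Resident macrophages clear lipid and dead cells in the depot, and microbial products reaching the tissue are sensed by receptors on these and other cells.

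Of 18058 genes tested, 1719 passed an adjusted p of 0.05 in edgeR's quasi-likelihood test with time as a covariate. The 807 genes higher in germ-free fat were 4.47% of those tested, with a median log2 fold change of 0.54. The 912 lower genes were 5.05%, with a median of -0.64, and the median over all genes tested was -0.01. Changes over 2-fold were fewer, 123 higher and 143 lower. In 1594 of the 1719 called genes, the 3 germ-free libraries lay all above or all below the 4 conventional ones. Over all genes, 11.9% had the germ-free libraries all above and 12.1% all below. Total counts ranged from 27488247 to 39212798 per library.

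**Figure D1:**
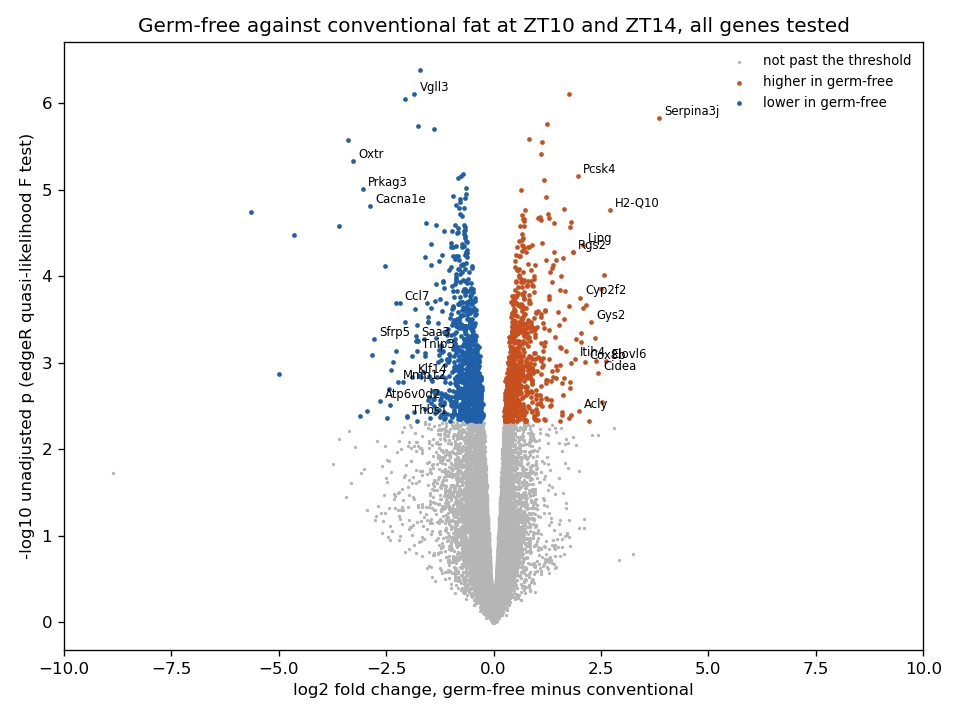
Each point is 1 of the 18058 genes tested at ZT10 and ZT14. The horizontal axis is the log2 fold change of germ-free over conventional libraries, the vertical axis is -log10 of the unadjusted p of edgeR's quasi-likelihood test, and colours mark the 807 higher and 912 lower genes. Names mark the 12 highest and 12 lowest fold changes among well-expressed called genes, from Serpina3j at 3.85 to Oxtr at -3.27.

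These calls lean on single libraries. Without the only germ-free ZT14 library, edgeR called no gene, although 3480 had an unadjusted p under 0.05. Without conventional ZT10 replicate 1 it called 129 higher and 185 lower genes, without conventional ZT14 replicate 1 366 and 406, and without conventional ZT10 replicate 2 265 and 523. The counts were 234 and 299 without conventional ZT14 replicate 2, 388 and 286 without germ-free ZT10 replicate 1, and 1258 and 1659 without germ-free ZT10 replicate 2. In each of these 7 fits, all called genes that could be tested again (1710 to 1719 of the 1719) kept their direction. The fits reuse libraries in which the genes were called, so the kept direction is not independent support. Below, a call is said to hold where it stayed past the threshold without each of the 6 libraries other than the germ-free ZT14 library. Counts per list are given without each of the 6, in the order just used or as a range. Every list count is to be read beside the 4.47% of all genes called higher and the 5.05% called lower.

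Several libraries carried RNA typical of neighbouring organs. Markers of the male accessory glands summed to 1988 CPM (a gene's count scaled to the size of its library) in conventional ZT10 replicate 2 and to at most 6.24 CPM in the other libraries. Liver markers summed to 639.8 CPM in the germ-free ZT14 library, against 40.6 to 177 CPM in the other 6. Epididymis and testis markers summed to 65.7 CPM in conventional ZT14 replicate 1, 24.8 CPM in germ-free ZT10 replicate 1 and 13.4 CPM in conventional ZT14 replicate 2, against at most 2.71 CPM in the other 4. The part of these in the results was not tested beyond leaving out single libraries. The labelled tissue matched its markers. The 24 adipocyte genes summed to between 52479.5 and 59385 CPM in conventional and between 65725 and 71829.6 CPM in germ-free libraries. Such a sum is weighted to the most expressed genes. Of the 24, 6 were called higher and 3 lower (median log2 fold change 0.15, range -2.78 to 0.71). Without each of the 6 libraries in turn, 0 to 8 were called higher and 0 to 5 lower. Within each library, the deviation of a gene's level from its mean over the 7 libraries was ranked against exon length. Spearman's rho lay between 0.0804 and 0.123 in the 4 conventional libraries and was -0.263, 0.0655 and -0.146 in the germ-free ones. With 18 relabellings within time, the exact 2-sided permutation p was 0.0556, the smallest that these libraries allow. Across the 18058 genes, the fold change ran against exon length with a rho of -0.183, given as a description since genes are not independent.

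The highest fold changes in germ-free fat were spread over fatty acid synthesis, glycogen, brown fat proteins and secreted proteins. Serpina3j, a member of the serine protease inhibitor family on chromosome 12 (chr12:104314553-104320725), stood at 0.800 and 0.800 CPM at ZT10 and 1.08 and 1.66 CPM at ZT14 in conventional fat. In germ-free fat it stood at 18.8 and 8.76 CPM at ZT10 and 16.0 CPM at ZT14, a log2 fold change of 3.85 ± 0.31 (standard error, SE; adjusted p = 0.00444). H2-Q10, a class Ib histocompatibility gene (chr17:35470089-35474563), rose by 2.71 ± 0.30 (adjusted p = 0.00861), from 4.23 to 7.83 CPM in the 4 conventional libraries to 24.5, 36.6 and 55.8 CPM. Both belong to families of near-identical genes, so how their reads were shared is uncertain. Lipg, an endothelial lipase, Cyp2f2, a cytochrome P450, Pcsk4, a proprotein convertase, and Rgs2, a regulator of G protein signalling, rose by 2.09, 2.02, 1.95 and 1.85. The groups were apart for each of these 6 genes, and all 6 calls held. Itih4, a plasma protein made mainly by liver, rose by 1.89, but its call was lost without each of 5 of the 6 libraries (adjusted p up to 0.0616). Levels in germ-free ZT10 replicate 2 were also above every conventional library for H2-Q10, Cyp2f2 and Itih4. Liver markers summed to 54.3 CPM in that library and to 639.8 CPM in the germ-free ZT14 library. The part of liver RNA in these rises was not tested.

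The lowest fold change was that of Oxtr, the oxytocin receptor (chr6:112473683-112489943). It measured 59.9 and 115 CPM at ZT10 and 67.9 and 98.9 CPM at ZT14 in conventional fat, and 7.67, 12.6 and 7.20 CPM in germ-free fat. The difference was 9.62-fold (log2 fold change -3.27 ± 0.30, adjusted p = 0.00653), with a wide gap between the groups. Prkag3, a regulatory subunit of AMP-activated protein kinase best known from muscle, measured 4.97 to 7.90 CPM in conventional and 0.476 to 1.10 CPM in germ-free libraries (-3.04 ± 0.31). Cacna1e, a voltage-gated calcium channel subunit, fell by 2.87 and Vgll3, a transcription cofactor that restrains fat cell formation, by 1.84. The calls of these 4 genes held. Sfrp5, a secreted Wnt antagonist made by fat cells, fell from between 27.6 and 59.1 CPM to 1.69, 7.81 and 8.10 CPM (-2.78 ± 0.50, adjusted p = 0.0203), and lost its call without either conventional ZT10 library (adjusted p up to 0.0512). Klf14, a transcription factor tied to fat cell size and lipid handling, fell by 1.89, a call lost without any 1 conventional library (adjusted p up to 0.0837). The plot of the lead genes by library shows these gaps.

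**Figure D2:**
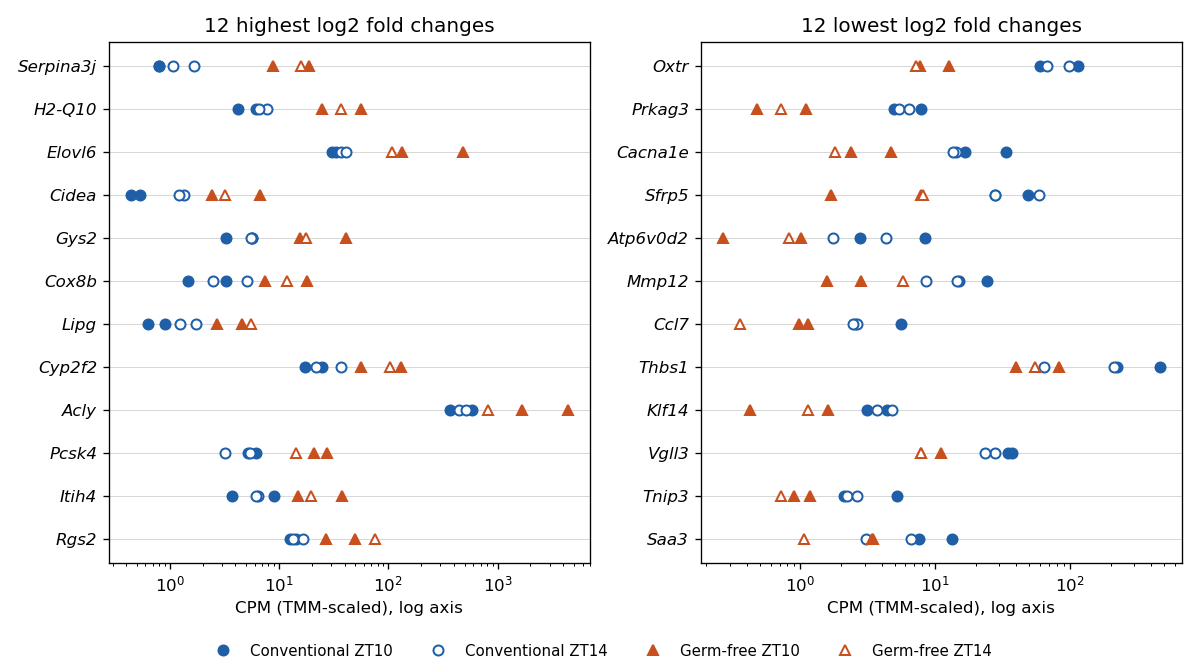
Levels of the 12 called genes with the highest (left) and the 12 with the lowest (right) log2 fold change, in CPM on a log axis, 1 point per library. Circles are the 4 conventional and triangles the 3 germ-free libraries, filled at ZT10 and open at ZT14. The groups are apart in every row except Thbs1 and Saa3, which overlap.

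Of 19 de novo lipogenesis genes tested, 8 rose in germ-free fat and none fell, against 4.47% and 5.05% of all genes, and the list median was 0.58. The windows below are the 250 bases before the RefSeq start (GRCm38.p6) of Fasn and Slc25a1, 2 of these genes, and of Cycs, an electron carrier described further on. They are shown because these genes moved with their lists. Fasn lies at chr11:120824548-120824797, Slc25a1 at chr16:17928220-17928469 and Cycs at chr6:50566570-50566819, all on the minus strand and printed 5′ to 3′ in the direction of the gene. Capitals mark every match to 4 motifs searched on both strands: CCAAT, the E-box CACGTG, the sterol element TCACNCCAC and the nuclear respiratory factor core GCGCATGCG.
Fasn: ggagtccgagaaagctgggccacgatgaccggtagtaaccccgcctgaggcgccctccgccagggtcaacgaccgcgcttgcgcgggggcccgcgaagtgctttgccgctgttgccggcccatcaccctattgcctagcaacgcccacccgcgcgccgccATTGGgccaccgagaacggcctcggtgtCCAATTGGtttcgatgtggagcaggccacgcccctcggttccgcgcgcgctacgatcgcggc
Slc25a1: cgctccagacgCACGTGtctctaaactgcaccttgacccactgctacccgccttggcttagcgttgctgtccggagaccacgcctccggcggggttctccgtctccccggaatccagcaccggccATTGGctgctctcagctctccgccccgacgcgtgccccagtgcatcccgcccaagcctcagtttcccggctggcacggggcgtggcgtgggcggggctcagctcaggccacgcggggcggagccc
Cycs: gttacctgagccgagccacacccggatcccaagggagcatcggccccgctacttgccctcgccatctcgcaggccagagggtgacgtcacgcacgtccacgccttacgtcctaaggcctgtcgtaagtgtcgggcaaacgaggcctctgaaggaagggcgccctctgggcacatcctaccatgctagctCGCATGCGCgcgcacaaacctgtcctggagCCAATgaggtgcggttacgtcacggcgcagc
The Fasn window held 3 matches to CCAAT, 2 of them overlapping on opposite strands. The Slc25a1 window held 1 E-box and 1 CCAAT, and the Cycs window 1 CCAAT and 1 nuclear respiratory factor core. Windows could be matched to 9426 of the 18058 tested genes, of which 36.6% held CCAAT, 8.4% the E-box, 0.965% the sterol element and 2.98% the respiratory factor core. Of the 13 lipogenic genes with a window, 8 held CCAAT, 3 the E-box and none the sterol element. Of the 23 respiratory chain genes with a window, 7 held CCAAT and 2 the respiratory factor core. In lists described further on, CCAAT was held by 10 of 17 citric acid cycle windows and 10 of 16 of branched-chain amino acid breakdown. Extracellular matrix genes had it in 10 of 25 (40%). The lipogenic share (61.5%) was close to those of the citric acid cycle (58.8%) and branched-chain lists (62.5%), so it was not particular to lipogenesis. A match is a description of the letters and not of binding.

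Elovl6, which lengthens palmitate to stearate (chr3:129532355-129638495), stood at 32.9, 30.7, 36.8 and 40.8 CPM in the conventional libraries (ZT10, then ZT14). In germ-free fat it stood at 487 and 134 CPM at ZT10 and 108 CPM at ZT14, a 6.17-fold difference (2.62 ± 0.52, adjusted p = 0.0255). Acly, ATP citrate lyase, stood at 371 to 583 CPM in conventional fat and at 4425, 1676 and 813 CPM in germ-free fat (1.98 ± 0.49, adjusted p = 0.0441). For both genes the germ-free libraries lay above all conventional ones, and germ-free ZT10 replicate 1 was far above the other 2. Fasn, fatty acid synthase, followed the same order, with 16552, 10803 and 6165 CPM against 1889 to 4101 CPM (1.78 ± 0.38, adjusted p = 0.0311). DESeq2 did not call Fasn (adjusted p = 0.143), and neither did an edgeR fit of all 21 libraries (adjusted p = 0.104). Me1, the malic enzyme that yields NADPH, rose by 1.78, Acss2, which makes acetyl-CoA from acetate, by 1.75, Acaca, the cytosolic acetyl-CoA carboxylase, by 1.69 and Slc25a1, the mitochondrial citrate carrier, by 1.46. Acacb, the mitochondrial carboxylase, measured 238 to 390 CPM in conventional and 362 to 605 CPM in germ-free libraries, which overlapped. With time in the model it rose by 0.60 ± 0.07 (adjusted p = 0.00931). Among these 8 only its call held without each of the 6 libraries, but it was lost in the fit of all 21 (adjusted p = 0.154). Fasn, Me1 and Acss2 lie outside the rule for named genes and were chosen after their values were seen. Scd1, the stearoyl-CoA desaturase, had overlapping groups and a log2 fold change of 0.54 ± 0.19 (adjusted p = 0.109). The transcription factors of the list, Srebf1 and Mlxipl, also chosen after their values were seen, measured 0.34 ± 0.15 (adjusted p = 0.166) and 0.10 ± 0.10 (adjusted p = 0.523). Left out singly, the 6 libraries gave 1, 3, 1, 2, 7 and 11 called members, and a fit of all 21 libraries gave 1.

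**Figure D3:**
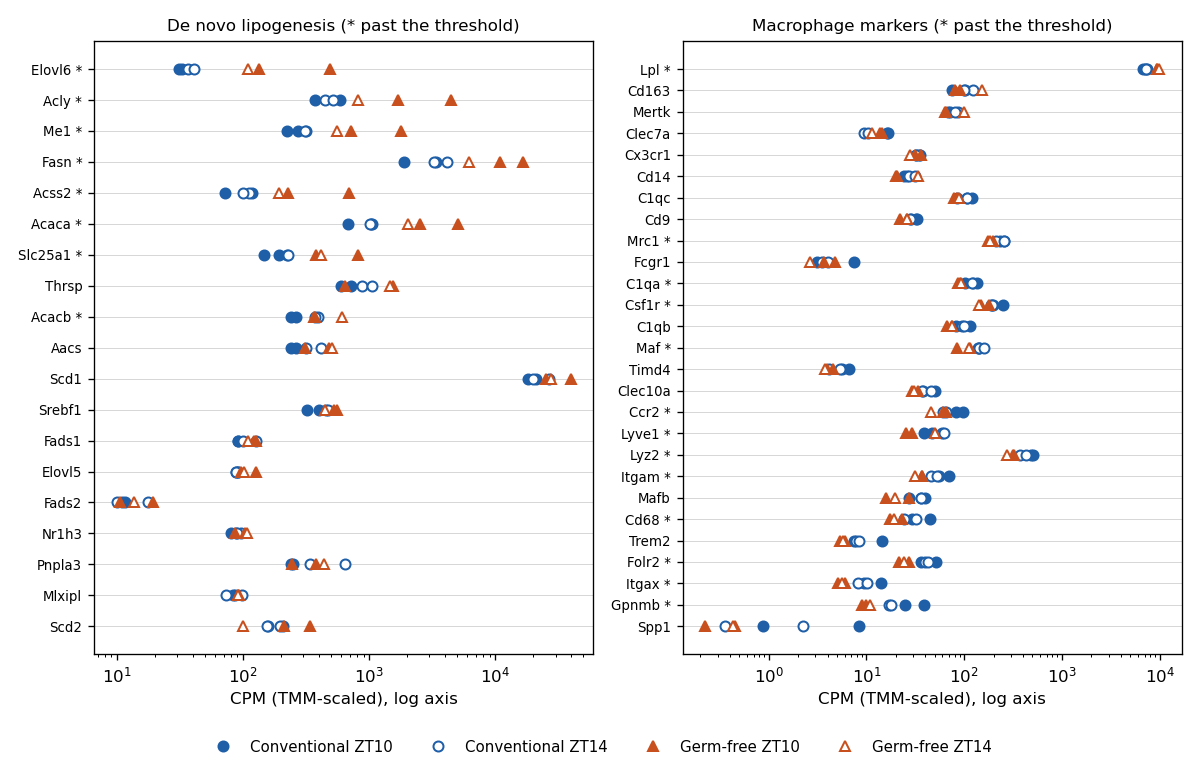
Levels of the 19 de novo lipogenesis genes (left) and the 27 macrophage markers (right) by library, in CPM on a log axis, ordered by fold change. Circles are conventional and triangles germ-free libraries, filled at ZT10 and open at ZT14, and stars mark genes past the threshold. The germ-free triangles of Elovl6, Acly, Me1, Fasn, Acss2, Acaca and Slc25a1 lie to the right of all conventional circles, and those of Lyz2, Itgam and Folr2 to the left.

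Genes of NADPH supply gave 2 higher members of 9 and none lower (median 0.32). Tkt and Taldo1, the transketolase and transaldolase of the pentose phosphate pathway, rose by 1.47 ± 0.30 and 0.84 ± 0.15. G6pdx, the first enzyme of that pathway, measured 0.08 ± 0.12 (adjusted p = 0.690). Of 24 genes of triglyceride synthesis and lipid uptake, 10 rose and none fell, with a list median of 0.35. Acsl1, which activates long-chain fatty acids, stood at 1324 to 2404 CPM in conventional fat and at 4814, 3898 and 4697 CPM in germ-free fat. Its log2 fold change was 1.36 ± 0.19 (adjusted p = 0.0126), and the 3 germ-free libraries were close together. Dgat1, which makes the final ester bond of triglyceride, rose by 0.94 ± 0.13, Slc27a1, a fatty acid transporter, by 0.76 ± 0.12, and Gpihbp1, the capillary anchor of lipoprotein lipase, by 0.69 ± 0.08. The calls of these 4 genes held. Lpl, lipoprotein lipase, rose by 0.43 ± 0.08 (adjusted p = 0.0197), and Cd36, the fatty acid translocase, measured 0.27 ± 0.09 (adjusted p = 0.102). Left out singly, the 6 libraries gave 4, 6, 4, 5, 9 and 10 called members of this list, and 0, 1, 0, 0, 2 and 4 of the NADPH list.

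All 33 nuclear genes of oxidative phosphorylation rose, with a median of 0.57 and a range from 0.38 (Ndufs7, complex I) to 0.83 (Cycs, cytochrome c). In each of the 33, the 3 germ-free libraries lay above the 4 conventional ones. Cycs measured 41.0, 46.6, 49.0 and 47.5 CPM in conventional fat and 98.7, 68.7 and 77.4 CPM in germ-free fat (0.83 ± 0.13, adjusted p = 0.0152). Sdhb, the iron-sulphur subunit of complex II, measured 108 to 118 CPM against 207, 156 and 176 CPM (0.66 ± 0.10), and its call held. Ndufs7 was picked after its values were seen, as the lowest of the list. With the length trend of each library removed, all 33 were still called. The calls were lost more easily by leaving libraries out, with 1, 22, 10, 14, 28 and 33 called.

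In the citric acid cycle, 18 of 20 genes rose and none fell (median 0.61). Mdh2, malate dehydrogenase, measured 128 to 152 CPM in conventional and 201 to 227 CPM in germ-free libraries (0.59 ± 0.08, adjusted p = 0.0119). Dlst, a subunit of the 2-oxoglutarate dehydrogenase complex, rose by 0.50 ± 0.07, and both calls held. Idh2, the NADP-linked mitochondrial isocitrate dehydrogenase, measured -0.07 ± 0.09 (adjusted p = 0.624). The list counts without 1 library were 4, 14, 8, 9, 17 and 18. Of 22 fatty acid oxidation genes, 13 rose, among them Acadl, long-chain acyl-CoA dehydrogenase (0.64 ± 0.09, held). The 1 that fell was Cpt1a, the carnitine palmitoyltransferase that admits fatty acids to the mitochondrion (-0.34 ± 0.08, adjusted p = 0.0449), which was chosen after its values were seen. Without single libraries, 1, 8, 2, 2, 7 and 15 of the list were called higher.

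Breakdown of branched-chain amino acids showed 14 of 19 genes higher and 1 lower (median 0.36). Mccc1, a subunit of methylcrotonyl-CoA carboxylase of leucine breakdown, measured 117, 106, 122 and 119 CPM in conventional fat and 163, 171 and 170 CPM in germ-free fat (0.54 ± 0.07, adjusted p = 0.00931). The groups were narrow and apart. The 2 transaminases that start the pathway moved in opposite directions: Bcat2, the mitochondrial form, rose by 0.61 ± 0.10 and Bcat1, the cytosolic form, fell by 1.45 ± 0.18, from between 4.85 and 6.61 CPM to between 1.83 and 2.64 CPM. These 3 calls held, but Bcat1 was not called in the edgeR fit of all 21 libraries (adjusted p = 0.314). The number of members called higher without 1 library was 2, 4, 3, 3, 4 and 14.

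Of 32 genes of glucose uptake, glycolysis and glycogen, 8 rose and none fell (median 0.37). Gys2, a glycogen synthase best known from liver, stood at 3.30 to 5.67 CPM in conventional fat and at 41.4, 15.6 and 17.6 CPM in germ-free fat (2.28 ± 0.38, adjusted p = 0.0179). Gbe1, the glycogen branching enzyme, rose by 0.97 ± 0.19, and Pdk1, which phosphorylates pyruvate dehydrogenase, by 1.22 ± 0.16 (104, 166 and 101 CPM against 48.3 to 54.2 CPM). The call of Pdk1 held. Gys2 lost its call without conventional ZT10 replicate 1 (adjusted p = 0.0564) and Gbe1 without that library, conventional ZT10 replicate 2 or conventional ZT14 replicate 2 (adjusted p up to 0.0770), and the list counts were 1, 5, 2, 2, 5 and 19. DESeq2 called 19 members higher. Among genes that mark brown or beige fat cells, 4 of 10 rose: Cidea, a lipid droplet protein, by 2.44 ± 0.51, Cox8b, a cytochrome oxidase isoform, by 2.12 ± 0.42, Dio2, the deiodinase that activates thyroid hormone, by 1.18 ± 0.30 and Letmd1, a mitochondrial membrane protein, by 0.48 ± 0.07. Levels of the first 3 were low, at most 6.77, 17.9 and 1.64 CPM in any library, and only the call of Letmd1 held. The number called without 1 library was 1, 3, 1, 1, 2 and 4. Ppargc1a and Prdm16, regulators of the brown fat programme chosen after their values were seen, measured 0.51 ± 0.23 (adjusted p = 0.188) and 0.21 ± 0.22 (adjusted p = 0.575).

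**Figure D4:**
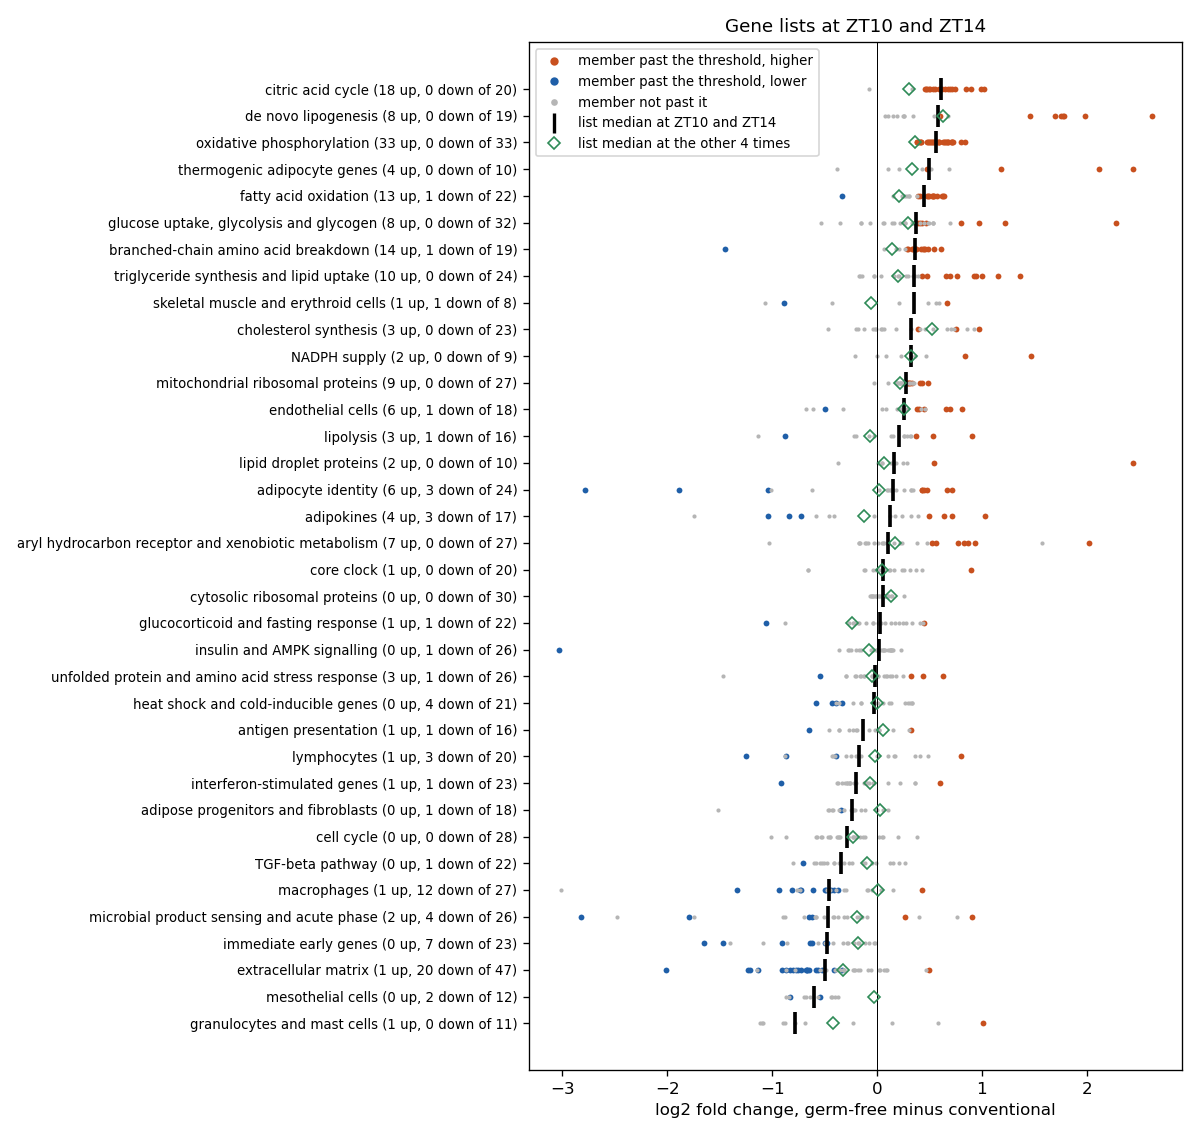
Log2 fold changes of list members at ZT10 and ZT14, 1 row per list, ordered by the list median (black tick). Red and blue points are members past the threshold, higher and lower, grey points are members that did not pass, and open diamonds are the list medians at the other 4 times. Lists of liver, ciliated duct, epididymis and testis, and male accessory gland markers are not drawn. The liver list had a median of 1.01 and the ciliated duct list one of -1.40, with no member called. Among the lists drawn, the citric acid cycle (0.61), de novo lipogenesis (0.58) and oxidative phosphorylation (0.57) have the highest medians. Extracellular matrix (-0.50), mesothelial cells (-0.60) and granulocytes and mast cells (-0.78) have the lowest.

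Hormones and receptors of fat cells moved in both directions. Lep, leptin, the satiety hormone released in proportion to fat mass, measured 870, 1391, 1380 and 1431 CPM in conventional fat. In germ-free fat it measured 355 and 534 CPM at ZT10 and 932 CPM at ZT14, a fall of 1.04 ± 0.23 on the log2 scale (adjusted p = 0.0342). The germ-free ZT14 library overlapped the conventional range, and the call was lost without each of 5 of the 6 libraries. Of 17 adipokine genes, Apln (apelin), Retn (resistin), Nrg4 (neuregulin) and Rbp4 (retinol-binding protein) rose by 1.03, 0.71, 0.64 and 0.49. Metrnl (meteorin-like), Lep and Retnla (resistin-like alpha) fell by 0.84, 1.04 and 0.72. Of these 7 only the call of Apln held, and it was lost in the edgeR fit of all 21 libraries (adjusted p = 0.0690). Without single libraries, 1, 2, 1, 2, 2 and 5 adipokines were called higher and 0, 0, 2, 0, 0 and 4 lower. Lep, Rbp4 and Retnla were named after their values were seen. Adipoq, adiponectin, measured 0.12 ± 0.11 (adjusted p = 0.478). Among 16 lipolysis genes, Adora1, the adenosine receptor that restrains lipolysis (66.6 to 87.6 CPM against 132 to 151 CPM), rose by 0.90 ± 0.11. Abhd5, the co-activator of adipose triglyceride lipase, rose by 0.53 ± 0.07, and both calls held. Npr3, the natriuretic peptide clearance receptor, fell by 0.88 ± 0.20, a call that was lost without each of 5 of the 6 libraries.

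Of 47 extracellular matrix genes, 20 fell in germ-free fat and 1 rose, with a list median of -0.50. Col1a2, a chain of type I collagen, measured 757, 715, 680 and 807 CPM in conventional and 337, 475 and 377 CPM in germ-free libraries (-0.91 ± 0.13, adjusted p = 0.0129). Col5a2, of type V collagen, measured 249 to 277 CPM against 159 to 168 CPM (-0.67 ± 0.07, adjusted p = 0.00861). The groups were apart for both, and both calls held. Col3a1, of type III collagen, fell by 0.67 ± 0.10, and lost its call without conventional ZT10 replicate 1 (adjusted p = 0.0515). Col1a1, the partner chain of Col1a2, chosen after its values were seen, fell by 1.21 ± 0.25 (adjusted p = 0.0293). Its call was lost without each of 5 of the 6 libraries (adjusted p up to 0.0814). Thbs1, thrombospondin, fell by 2.01 ± 0.51 (adjusted p = 0.0474), but its conventional values ran from 63.9 to 467 CPM and overlapped the germ-free range of 39.6 to 83.4 CPM. The member that rose was Tnc, tenascin, by 0.50 ± 0.10 (adjusted p = 0.0242), also named after its value was seen. The call of Tnc was lost without each of 4 of the 6 libraries (adjusted p up to 0.0756). It was also lost in the edgeR fit of all 21 libraries (adjusted p = 0.442). Dcn, decorin, measured 0.03 ± 0.08 (adjusted p = 0.843). Tgfb3, a ligand of the transforming growth factor beta pathway, fell by 0.70 ± 0.07 (adjusted p = 0.00774, held). It was the only called gene of 22 in that list, which is near the 5.05% of all genes called lower. Without single libraries, 1, 1, 1, 2, 1 and 9 of that list were lower. With each library's length trend removed, 20 members of the matrix list were called lower. Without single libraries, 3, 10, 13, 11, 10 and 29 were, and a fit of all 21 libraries gave 13.

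Of 27 macrophage markers, 12 fell and 1 rose, the riser being Lpl, which fat cells also express, and the median was -0.46. Lyz2, lysozyme, measured 509, 488, 377 and 430 CPM in conventional fat and 314, 323 and 276 CPM in germ-free fat (-0.61 ± 0.08, adjusted p = 0.00972). Itgam (CD11b) fell by 0.72 ± 0.10 and Folr2, a marker of resident macrophages, by 0.81 ± 0.14, with the groups apart, and these 3 calls held. In the edgeR fit of all 21 libraries, Lyz2 (adjusted p = 0.0563) and Itgam (adjusted p = 0.0509) were not called. Cd163, another marker of resident macrophages, measured 0.15 ± 0.15 (adjusted p = 0.550). Among the lowest fold changes were 4 genes that macrophages express. Mmp12, macrophage elastase, fell by 2.23 ± 0.48, Atp6v0d2, a proton pump subunit, by 2.65 ± 0.62, Ccl7, a monocyte chemoattractant, by 2.19 ± 0.34 and Tnip3, an inhibitor of NF-kappaB signalling, by 1.79 ± 0.34. None of these 4 calls held. Summed over all 27 markers, the germ-free libraries were the higher ones, at 10728 to 11487 CPM against 8719 to 9402 CPM, and Lpl made up most of that sum. Without Lpl, a version added after the data were seen, the order turned: the sums were 1902 to 2289 CPM in the conventional and 1426 to 1580.3 CPM in the germ-free libraries. Both versions gave an exact 2-sided permutation p of 0.0556, the smallest possible. In bulk tissue, fewer cells of a type and less RNA per cell cannot be told apart. Left out singly, the 6 libraries gave 4, 6, 12, 4, 3 and 11 lower members, and a fit of all 21 libraries gave 3.

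Other cell type markers moved beside these lists, and their part in the results was not tested. Mesothelial markers, from the lining of the abdominal cavity, summed to 416 to 679 CPM in conventional and 302 to 411 CPM in germ-free libraries. All 12 had negative fold changes (median -0.60), 2 of them called (0, 1, 2, 0, 1 and 2 without single libraries): Krt19, a keratin (-0.83 ± 0.16), and Wt1, a transcription factor (-0.54 ± 0.13). Lymphocyte markers summed to 283 to 349 CPM and 168 to 244 CPM. Of 20 tested, 9 had positive and 11 negative fold changes (median -0.17), with 3 called lower and 1 higher. Ighm, the immunoglobulin mu chain, fell by 0.87 ± 0.15, a call lost without conventional ZT10 replicate 1 (adjusted p = 0.0547). The riser was Klrb1c, by 0.80 (adjusted p = 0.0351), a call lost without each of the 6 libraries. Left out singly, the 6 libraries gave 0 to 2 lower members of this list. Endothelial markers ran the other way, at 1158 to 1246 CPM and 1318 to 1578 CPM. Kdr, the vascular endothelial growth factor receptor, measured 101 to 131 CPM in conventional and 184 to 227 CPM in germ-free libraries (0.81 ± 0.10, adjusted p = 0.00931), and its call held. Of 18 endothelial markers, 6 rose and 1, Lyve1, which is also a macrophage and lymphatic marker, fell. Left out singly, the 6 libraries gave 3, 3, 5, 3, 6 and 6 higher members. Ciliated duct markers summed to 37.3 to 83.6 CPM and 26.7 to 38.8 CPM.

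**Figure D5:**
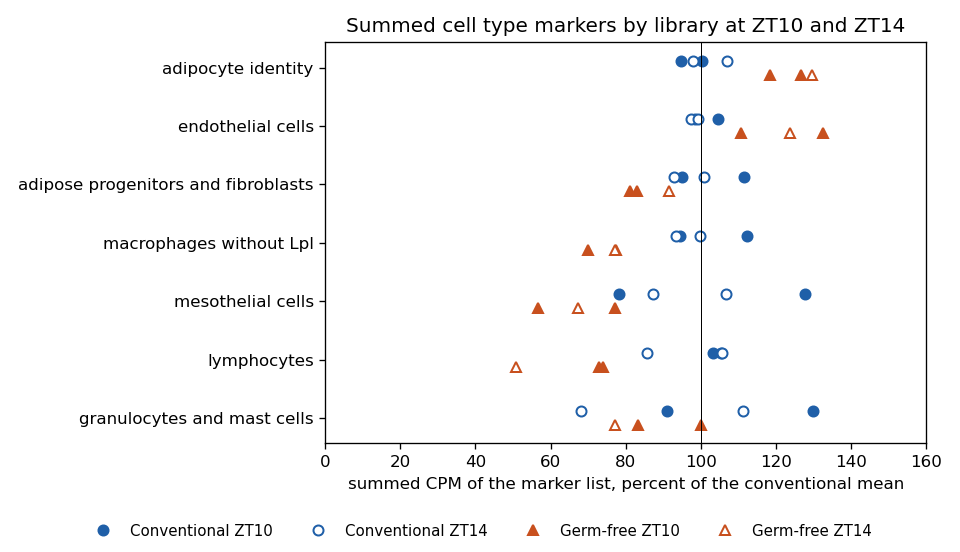
Summed CPM of 7 marker lists in each library, as a percentage of the conventional mean. Circles are the 4 conventional and triangles the 3 germ-free libraries, filled at ZT10 and open at ZT14. The macrophage list is drawn without Lpl, a version chosen after the data were seen. Adipocyte and endothelial sums of the germ-free libraries lie above every conventional library, and the sums for macrophages without Lpl, mesothelial cells, lymphocytes and progenitors below. A sum is weighted to its most expressed genes: of the 24 adipocyte genes, 6 were called higher and 3 lower.

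Among 26 genes of microbial product sensing and the acute phase, 4 fell and 2 rose, against 5.05% and 4.47% of all genes, and 20 did not pass (median -0.47). Lbp, the lipopolysaccharide-binding protein, measured 95.7, 104, 106 and 113 CPM in conventional fat and 65.2, 62.2 and 69.8 CPM in germ-free fat (-0.65 ± 0.07, adjusted p = 0.00861, held). Hp, haptoglobin, fell by 0.62 ± 0.10, and Saa3, a serum amyloid A made in fat, by 1.79 ± 0.32. Ptx3, a pentraxin, fell by 2.82 ± 0.54. Hp lost its call without conventional ZT10 replicate 1 (adjusted p = 0.0593). Saa3 lost its call without conventional ZT10 replicate 2 or germ-free ZT10 replicate 1 (adjusted p up to 0.0611). Ptx3 did so without conventional ZT10 replicate 1, conventional ZT14 replicate 2 or germ-free ZT10 replicate 1 (adjusted p up to 0.0840). In the edgeR fit of all 21 libraries, Lbp (adjusted p = 0.0722) and Hp (adjusted p = 0.150) were not called. Saa3 and Ptx3 were low, at most 13.4 and 3.77 CPM. The 2 risers were Orm1, an acute phase glycoprotein (0.90 ± 0.22), and Nfkbia, the NF-kappaB inhibitor (0.27 ± 0.07), both named after their values were seen. Tlr4, the lipopolysaccharide receptor, measured -0.14 ± 0.08 (adjusted p = 0.264). Without single libraries, 2, 4, 4, 3, 2 and 9 members were called lower, and 0, 1, 0, 0, 0 and 1 higher. The immediate early genes are induced rapidly by growth factors, stress and tissue handling. All 23 had negative fold changes, with a median of -0.48, and 7 passed. Fosb, a Fos family factor, fell by 1.65 ± 0.34, Egr2, a zinc finger factor, by 1.47 ± 0.31, Fosl2 by 0.62 ± 0.12 and Jund by 0.48 ± 0.10. None of these calls held, and the list counts were 0, 2, 7, 0, 0 and 9.

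The clock genes described here did not pass the test. Nr1d1, the repressor REV-ERB alpha, stood at 110 and 84.7 CPM at ZT10 and 39.7 and 34.1 CPM at ZT14 in conventional fat, against 88.7 and 141 CPM and 22.0 CPM (-0.12 ± 0.24, adjusted p = 0.776). Dbp, a clock output factor, measured 0.31 ± 0.16 (adjusted p = 0.229), Per2 0.11 ± 0.10 and Arntl, which encodes BMAL1, -0.66 ± 0.30 (adjusted p = 0.194). Tef, Per3, Nr1d2, Rora, Clock, Csnk1d, Csnk1e, Cry1, Cry2, Per1, Bhlhe40, Bhlhe41, Hlf, Nfil3 and Npas2, did not pass either. The closest was Cry1, at 0.42 ± 0.11 (adjusted p = 0.0546). Cytosolic ribosomal proteins gave 0 calls in 30 (median 0.05), while 9 of 27 mitochondrial ribosomal proteins rose (median 0.28). Without single libraries, 0, 2, 2, 1, 3 and 18 of the latter were called.

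The dusk calls were set beside the other 4 times, which share no library with them. There, 8 conventional and 6 germ-free libraries gave 815 higher genes (4.39% of 18554) and 1068 lower ones (5.76%). Of the 807 higher genes at dusk, 249 were called higher at the other times too, 30.9% of the dusk list and 30.6% of the other. The shared lower genes were 222, 24.3% of the dusk list and 20.8% of the other. The direction was the same for 94.5% of the higher and 86.6% of the lower dusk calls, against 70.3% of all 17865 genes tested in both. Oxidative phosphorylation had 21 of 33 called and a median of 0.36 at the other times, and Acsl1, Prkag3, Col1a2 and Oxtr were called in both. The macrophage list had a median of 0.01 there and mesothelial markers one of -0.03, against -0.46 and -0.60 at dusk. Branched-chain amino acid breakdown had a median of 0.14 and 1 called gene.

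No gene differed between dusk and the other times by a test of that difference itself. With edgeR's quasi-likelihood test of the interaction over all 21 libraries, 0 genes passed, the smallest adjusted p was 0.503, and 1342 had an unadjusted p under 0.05. DESeq2 called 21. Among the smallest p-values were those of Tle1, Cyp2e1, Mccc1, Oxsm, Ltbp2 and Ranbp9, all at that adjusted p. Cyp2e1, a cytochrome P450, rose at dusk by 0.77 ± 0.11 (2725 to 4588 CPM against 5356, 4949 and 6848 CPM) and measured -0.50 at the other times. Between ZT10 and ZT14 the group difference changed in 0 genes by edgeR (505 at an unadjusted p under 0.05), with 1 germ-free library at ZT14. DESeq2 called 8.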

How the data were processed

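The authors deposited exonic read counts of 38087 genes in 1 table, which also lists exon lengths. Per the submitters' processing notes, STAR 2.4.0i and build mm10 were used. Which program counted the reads, how it treated strand and repeats, and with which annotation, is not given in the sources used here. Tests ran in R 4.3.3 by edgeR 4.0.16 and, as an alternative, DESeq2 1.42.0. The filter filterByExpr kept 18058 genes. Library sizes were scaled by TMM (a trimmed mean of log ratios), and the 7 dusk libraries were fitted with edgeR's quasi-likelihood test, time as covariate and Benjamini-Hochberg adjustment. Library sums were compared by exact permutation within time. Fold changes are log2 of germ-free over conventional with SE, and CPM is TMM-scaled. Differences at low counts were less detectable. Positions came from GENCODE M21 on GRCm38, matched for 36308 genes. Promoter windows were used where the RefSeq start lay within 500 bases of that annotation's. The tests were checked on simulated counts. Plots used Python 3.11.15 and matplotlib 3.10.9.

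The comparison, the 40 gene lists and the naming rule were chosen with earlier results of these data known. Leaving out placeholder models and pseudogenes, named genes were the 12 highest and 12 lowest called fold changes whose mean log2 CPM reached 1, up to 4 called members per list and up to 2 that did not pass, the 8 smallest p for the difference from the other times, and all clock genes. Alternatives were DESeq2, size factors, no filter, all 21 libraries, ZT10 alone, a replicate block, removal of the length trend and leaving out each library. Replicates of a group differed by more than sampling noise (chi-square per degree of freedom 14.9 to 64.4). Some results that the naming rule covers are not reported here.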

Additional observations from a re-analysis of the deposited data

Results flagged for a closer look

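In each of 251 sets of 4 conventional libraries (genes named by the rule or in the text, and marker sums), the highest or lowest library was set against its nearest neighbour, and 17 had a gap above Dixon's 95% critical value. For independent draws from 1 population, chance alone marks about 1 set in 20, or 12.6 here. These sets pool ZT10 with ZT14 and their genes are not independent, so 17 cannot be judged against 12.6. Conventional ZT10 replicate 2 stood apart, in CPM, with Acaca at 682, Cacna1e at 33.5, Gys2 at 3.30, Irf7 (an interferon response factor) at 13.5, Ndufs7 at 42.5 and Ogdh (of the 2-oxoglutarate dehydrogenase complex) at 271.8. It also stood apart with Svs5, a seminal vesicle protein, at 527.8 CPM and with the male accessory gland sum at 1988 CPM. Conventional ZT10 replicate 1 stood apart with Ccl7 at 5.57, G6pdx at 229.8, Il7r (an interleukin receptor of lymphocytes) at 6.20, Lep at 869.7, Tgfb3 at 47.6 and Tnip3 at 5.23 CPM. Conventional ZT14 replicate 1 did so with Pde3b, the phosphodiesterase through which insulin restrains lipolysis, at 890.3 CPM and with the lymphocyte sum at 283.2 CPM. Conventional ZT14 replicate 2 did so with Arntl at 7.65 CPM.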

How the results depend on the processing

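The 1719 calls kept their direction under every alternative listed in the processing notes that could test them, and 1709 of 1710 did in an added fit of all 21 libraries less conventional ZT10 replicate 2 and the germ-free ZT14 library, chosen after seeing the data. All these fits reuse libraries in which the genes were called, so a kept direction was likely from the outset and is not independent support. The number of calls was less stable. Against 807 higher and 912 lower genes, and 157 and 68 list members, DESeq2 gave 1180 and 1337 genes (205 and 116 members), no filter 1130 and 1424 (200 and 123), and all 21 libraries together 779 and 559 (114 and 33). ZT10 alone gave 0 and 0 genes and 0 and 0 members (2920 genes at an unadjusted p under 0.05), and the added fit 0 and 2 genes and 0 and 0 members (2201 unadjusted). Leaving out 1 library gave 0 to 1258 higher and 0 to 1659 lower genes, and 0 to 197 higher and 0 to 109 lower members. DESeq2 called 21 genes for dusk against the other times and 8 for ZT14 against ZT10, for which edgeR gave 0 to 1 when a library was left out. The causes were not tested, other than that ZT10 alone holds fewer libraries. With a replicate block, 1010 and 1130 genes were called (186 and 83 members). Numbers shared at ZT10 gave only 2 pairs, whose deviations correlated across genes at r = 0.226 (rho 0.0467), so the samples share a number and no stated pairing. With 4 residual degrees of freedom and 1 germ-free library at ZT14, changes in low-count genes were the least detectable.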

Other observations

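Among the smallest p-values were those of 6 genes outside the lists and the naming rule, chosen after their values were seen. Prtn3, a serine protease known from neutrophil granules, measured 18.2, 18.6, 12.0 and 15.2 CPM in conventional fat (ZT10, then ZT14) and 5.16, 5.56 and 4.56 CPM in germ-free fat. It fell by 1.70 ± 0.11 on the log2 scale (adjusted p = 0.00404), with the groups far apart. Granulocyte and mast cell markers summed to 34.0 to 65.0 CPM in conventional and 38.6 to 50.1 CPM in germ-free libraries, so the groups overlapped in that sum. Member by member, 8 of the 11 tested had negative and 3 positive fold changes (median -0.78). The only call was Kit, which rose by 1.01. DESeq2 called 5 members lower and 1 higher. Chchd10, a mitochondrial intermembrane space protein, measured 25.1, 22.2, 27.7 and 25.3 CPM against 102, 75.7 and 76.9 CPM. It rose by 1.76 ± 0.13 (adjusted p = 0.00404), and no germ-free library came near the conventional range.

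St3gal6, a sialyltransferase, rose by 1.24 ± 0.10, Btnl9, a butyrophilin-like protein, by 1.10 ± 0.10 and Vnn3, of the pantetheinase family, by 0.83 ± 0.07. Syp, the synaptic vesicle protein synaptophysin, fell by 1.38 ± 0.11. The calls of these 6 genes were kept without each of the 6 libraries other than the germ-free ZT14 library.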
